A study of Mus musculus with 8 samples.

Results

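The nuclear receptor genes of the mouse kidney were examined in the renal cortex of aged and young mice. The members were the genes whose symbols follow the systematic Nr scheme with a subgroup letter from a to h, apart from Nr1d1, Nr1d2, Nr3c1, Nr3c2 and Nr4a1, together with the estrogen-related, retinoic acid, retinoid X and thyroid hormone receptors, Hnf4a, Hnf4g, Ppard, Pparg, Esr1 and Pgr. This rule found 35 of the 22609 genes in the count tables. The rule itself used no measured value, but it was set with earlier results of these data known. RNA-Seq had been carried out on kidney cortex from 4 aged and 4 young male C57BL6 mice, with 1 library per mouse. The aged mice were 30 months old and the young mice 5 months old according to the sample labels. The paper gives a somewhat higher mean age for the aged mice. None of the mice had been treated and no transgene or deletion was named, so age was the single labeled difference between the groups.

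Nuclear receptors are transcription factors that bind short DNA elements through zinc fingers, and many of them are switched by a small lipid-soluble ligand held in a separate domain. Receptors for retinoic acid, thyroid hormone, oxysterols, bile acids and fatty acids bind DNA together with a retinoid X receptor, whereas the steroid receptors bind as pairs of the same protein and several orphan receptors act without a known ligand. In the kidney, Hnf4a is known for maintaining the program of the mature proximal tubule, the estrogen-related receptors for mitochondrial genes, and the farnesoid X and liver X receptors for lipid and bile acid handling. A recognition element shared by many nuclear receptors, though not by all, is the hexamer AGGTCA, arranged singly or in repeats.

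Promoter sequence is shown first for Nr1h3, Esrra and Nr2c2, because these were the 3 of the 28 receptor genes tested in which the aged and young mice did not overlap. The sequences are the 250 bases before an annotated start, taken from RefSeq on GRCm38.p6 and written 5′ to 3′ on the strand of the gene, with GGGCGG or its reverse complement, the GC box, in capitals. Gene positions given elsewhere in the text are on mm9 and are not comparable with these coordinates.
Nr1h3, chr2:91195036-91195285, minus strand: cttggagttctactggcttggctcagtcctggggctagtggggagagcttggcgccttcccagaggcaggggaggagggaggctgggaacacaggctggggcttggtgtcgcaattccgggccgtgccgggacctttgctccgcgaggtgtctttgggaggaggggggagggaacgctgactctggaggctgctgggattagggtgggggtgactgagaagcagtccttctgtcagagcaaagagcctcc
Esrra, chr19:6921809-6922058, minus strand: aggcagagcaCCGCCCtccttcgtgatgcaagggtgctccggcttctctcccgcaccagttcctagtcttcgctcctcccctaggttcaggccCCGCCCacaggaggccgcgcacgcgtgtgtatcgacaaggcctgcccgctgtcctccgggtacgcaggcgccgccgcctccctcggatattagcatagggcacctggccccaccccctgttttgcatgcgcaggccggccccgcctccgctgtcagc
Nr2c2, chr6:92092183-92092432, plus strand: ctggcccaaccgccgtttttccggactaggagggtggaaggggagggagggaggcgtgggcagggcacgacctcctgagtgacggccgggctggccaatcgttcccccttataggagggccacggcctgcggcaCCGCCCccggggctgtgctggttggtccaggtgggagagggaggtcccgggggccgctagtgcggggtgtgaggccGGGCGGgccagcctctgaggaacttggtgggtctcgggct
The Nr1h3 window held no GC box at a GC content of 63.6%, while the Esrra and Nr2c2 windows each held 2 GC boxes at 68.4% and 71.2% GC.

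Windows were available for 32 of the 35 members, 52 windows in all, and none for Nr5a1, Thra and Hnf4g. GGGCGG, searched on both strands, stood in 42.3% of the members' windows and in 32.7% of all 32851 windows. AGGTCA was found on either strand in 10 of 52 windows (19.2%, against 14.02% of all windows), belonging to 9 genes. The longer TNAAGGTCA element of estrogen-related receptors, which contains AGGTCA, was found in 0 of 52 windows (1.14% of all windows), and TATAAA in 15.4% (12.4% of all windows). Further matches in Rxra, Pparg and Nr6a1 are not shown, nor are those in Rarg, Rxrg, Nr5a2 and Nr0b1. A single AGGTCA match is shown for each of Thrb, Rxra, Pparg, Nr1h4 and Nr6a1, as examples. Each has 12 bases on either side, with the hexamer or its reverse complement in capitals.
Thrb, chr14:17660764-17660793, plus strand: aggagagttgacAGGTCAagggaatagggc
Rxra, chr2:27709232-27709261, plus strand: gggtggcaggaaAGGTCAgtcactctctgt
Pparg, chr6:115361104-115361133, plus strand: agccgccgcctcAGGTCAgagtcgccccgg
Nr1h4, chr10:89506855-89506884, minus strand: ccgtgtggcattTGACCTccagccagtctt
Nr6a1, chr2:38784543-38784572, minus strand: cggcttgtaaacTGACCTgtgaggatgacg
A match is a description of the letters only. Binding of a receptor at these places was not measured here.

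Gene counts per library ran from 14820804 to 19018543 in the aged mice and from 15152597 to 19821429 in the young mice (two-sided exact permutation test, p = 0.943). Levels are given as CPM, counts scaled to a common library size, after TMM normalization, and 3 counts, taken as the floor, corresponded to 0.147 to 0.204 CPM per library, which covers counting error only. The summed level of 8 proximal tubule markers ranged from 12129 to 28783 CPM, as against 421 to 556 CPM for 7 collecting duct markers. Aged mouse 1 stood apart from the rest. On the first principal component, with 48.1% of the variance, it lay at -71.5, the other aged mice between -16.3 and 2.26 and the young mice between 21.6 and 26.2. It had the lowest proximal tubule sum (12129 CPM, against 22567 or more in every other mouse) and the highest adipocyte marker sum. Aged mouse 1 was the highest or lowest of the 8 mice for 20 of 28 receptor genes, whereas every other mouse was so for 2 to 9. In whole cortex, fewer cells of a type and less RNA per cell cannot be told apart.

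Of the 35 receptor genes, 28 had at least 10 counts in 4 or more libraries and were tested for change among 13944 genes. Just inside this limit, Nr4a3 had 74, 10, 11 and 3 counts in aged mice 1 to 4, as against 5, 4, 10 and 9 in young mice. Just outside it, Rxrg had 12, 8, 12 and 4 and 1, 4, 3 and 3 counts. As CPM every aged mouse was above every young mouse in Rxrg. Aged mouse 4 and young mouse 2 had 4 counts each, though, at 0.218 and 0.211 CPM, so only the scaling parted them. The other genes outside were Nr5a2, with at most 14 counts in a library, Nr0b1, with at most 3, and Nr1h5, Nr2e1 of neural stem cells, Nr2e3 of photoreceptors and Nr5a1, which had 0 counts in all 8 libraries. A count of 0 allows a level of up to the floor.

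Compared per length, as FPKM, which divides the scaled counts by exon length, Hnf4a was the most abundant of these receptors, at 244 ± 17.3 in the young mice (SD, n = 4). Nr1h4, which encodes the farnesoid X receptor, followed at 81.02 ± 22.8 FPKM. Esrra, Rxra, Nr2f6 and Nr2f2 came next, at 44.4 ± 1.93, 43.8 ± 2.77, 42.4 ± 2.26 and 36.97 ± 2.46 FPKM in the young mice. The SDs of Esrra, Rxra and Nr2f6 overlap, so these neighbors in the order were not separated by more than their spread. At the other end, Pgr, Nr2f1, Nr4a2 and Nr4a3 had young means of 0.487, 0.221, 0.188 and 0.0722 FPKM. In the aged mice Hnf4a and Nr1h4 were again at the head, at 215 ± 35.1 and 73.6 ± 25.02 FPKM, and Rxra (46.3 ± 9.09 FPKM) had a higher mean than Esrra (31.9 ± 8.65 FPKM).

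**Figure D1:**
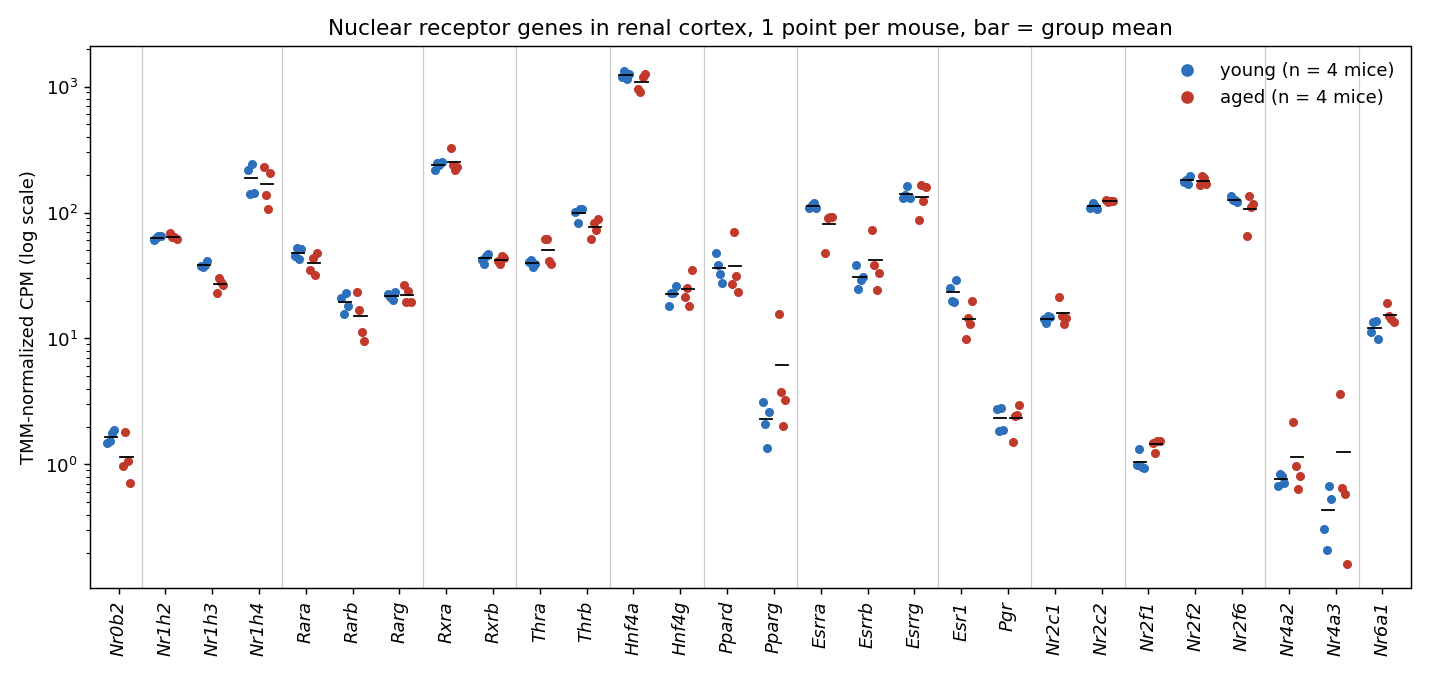
Level of each of the 28 tested receptor genes in each mouse, as TMM-normalized CPM on a log axis, ordered by role with gray lines between roles; blue points are the 4 young and red points the 4 aged mice, and bars are group means. Levels span from 0.163 CPM (Nr4a3) to 1338 CPM (Hnf4a), and for most genes the red and blue points overlap.

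To determine whether receptor expression differed with age, the aged mice were compared with the young mice gene by gene. A gene was called when its adjusted p was below 0.05 and its fold change above 1.5. None of the 28 receptor genes was called by edgeR, whereas 287 of the 13944 genes tested were (2.06%), 163 higher and 124 lower in aged mice. The higher share of these calls was 56.8%, and 75.4% when libraries were scaled by size only. DESeq2 called 1 receptor gene, Esr1, and 6.26% of all genes, and limma-voom called 0 and 3.46%. At the adjusted p alone, 1 of 28 receptor genes passed, Nr1h3, against 411 of all genes (2.95%). The adjusted p alone passed 12.1% of all genes by DESeq2 and 6.44% by limma-voom, to be read beside the passes of these tools given for the gene lists below. At an unadjusted p below 0.05 there were 7 receptor genes (25.0%), a share close to the 25.5% of all genes. Among them Nr6a1, Pparg and Thra had higher and Nr1h3, Esr1, Thrb and Esrra lower aged levels. The aged and young mice did not overlap in 3 of 28 receptor genes (10.7%), a smaller share than the 18.9% of all genes. The background counts depended on single libraries, with 8 genes called without young mouse 1, 12, 14 and 35 without young mouse 4, 3 and 2, 115 and 119 without aged mouse 3 and 2, 444 without aged mouse 1 and 733 without aged mouse 4. Without aged mouse 4, Esr1 was called too.

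The receptor genes' log2 fold changes, aged against young, ran from -0.71 (Esr1) to 1.57 (Nr4a3). In 15 of them the value was above 0 and in 13 below, with a median of 0.015 as against 0.029 over all genes tested. The median size of the change regardless of sign was 0.26 in the receptor genes and 0.20 in all genes. Only Esr1, Pparg, Nr4a3 and Nr4a2 were estimated beyond 1.5 fold.

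**Figure D2:**
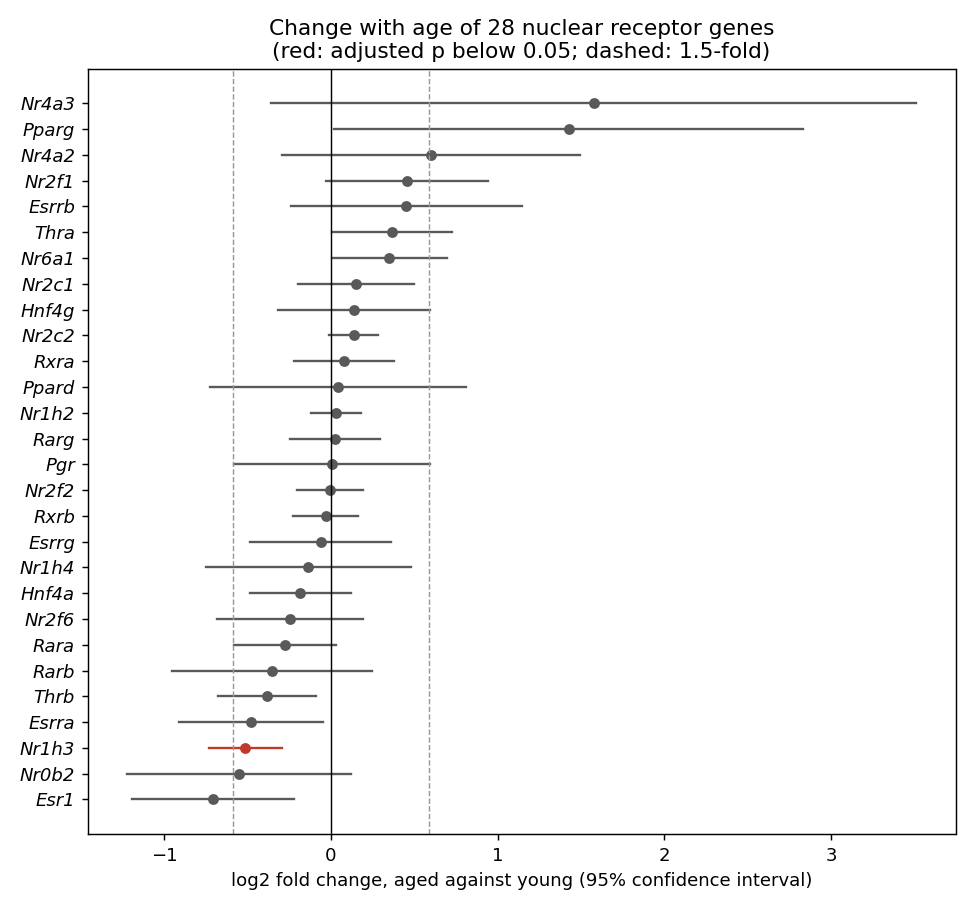
Log2 fold change of each tested receptor gene, aged against young, with its 95% confidence interval (edgeR, 4 mice per group); dashed lines mark 1.5 fold and red marks an adjusted p below 0.05. Nr1h3 at -0.51 is the single red point, and the intervals of Nr4a3 and Pparg are the widest.

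Nr1h3, which encodes liver X receptor alpha, an oxysterol-activated receptor that induces cholesterol export genes in macrophages, liver and other tissues, was lower in the aged cortex. The gene lies at chr2:91024218-91042991 on mm9. Its level was 22.9, 30.4, 27.9 and 26.5 CPM in aged mice 1 to 4 and 37.6, 36.8, 38.2 and 40.96 CPM in young mice 1 to 4. Every aged mouse was below every young mouse, with means of 26.9 ± 3.13 and 38.4 ± 1.81 CPM (SD, n = 4 each; log2 fold change -0.51, SE 0.10, edgeR adjusted p = 0.0385). The estimate lay inside the 1.5-fold limit, and its 95% confidence interval, -0.73 to -0.29 on the log2 scale, crossed it. Without aged mouse 3 the adjusted p was 0.0629, and without young mouse 1, 2, 3 or 4 it was 0.115, 0.0936, 0.103 or 0.126. The log2 fold change stayed between -0.58 and -0.44 whichever mouse was left out.

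Nr1h2, which encodes the related and widely expressed liver X receptor beta, had means of 64.3 ± 2.97 CPM in aged and 63.1 ± 1.92 CPM in young mice (log2 fold change 0.027, SE 0.066, edgeR adjusted p = 0.817). The interval of its log2 fold change, -0.12 to 0.18, lay above that of Nr1h3. The farnesoid X receptor gene Nr1h4 had 229.9, 137, 106 and 205 CPM in aged mice 1 to 4 and 218, 141, 244 and 143 CPM in young mice 1 to 4. Both groups held high and low mice and overlapped widely (log2 fold change -0.14, SE 0.27, edgeR adjusted p = 0.773). Nr1h5, which encodes farnesoid X receptor beta, was at 0.

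Of 10 genes listed as liver X receptor targets, 8 were tested, and 2 rose at the adjusted p and none fell. Apoe, the apolipoprotein that carries cholesterol out of cells, had 635, 409.7, 389 and 179 CPM in aged mice 1 to 4 and 103, 113, 94.8 and 83.99 CPM in young mice 1 to 4. All aged mice were above all young mice (log2 fold change 2.03, SE 0.32, edgeR adjusted p = 0.0267). Abca1, the transporter that loads cholesterol onto apolipoproteins, had 130.3, 141, 168 and 160.1 CPM in aged and 61.3, 67.5, 84.3 and 102 CPM in young mice, again without overlap (log2 fold change 0.93, SE 0.16, edgeR adjusted p = 0.0327). The median log2 fold change of the list was 0.59, as against 0.029 for all genes, and 7 of 8 were above 0. Without aged mouse 1 the list's median was 0.37. Apoe and Abca1 had the opposite sign to Nr1h3. Both passes were lost without aged mouse 2, aged mouse 3 or any one young mouse, with adjusted p values of 0.0508 to 0.102 for Apoe and 0.0563 to 0.0934 for Abca1. Both passes were kept without aged mouse 1 and without aged mouse 4.

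Leukocyte markers were read beside Nr1h3, since macrophages express it. Their summed level was 44.1 to 87.8 CPM in aged and 73.9 to 106 CPM in young mice. Of the 5 of 6 markers tested, 1 fell and none rose at the adjusted p. The log2 fold changes were above 0 in 4 of these 5 and below 0 in 1. Their median was 0.29, and 0.50 without aged mouse 1. The gene that fell was Csf1r, the receptor for macrophage colony-stimulating factor, with 24.7, 33.5, 23.9 and 41.7 CPM in aged and 75.2, 47.7, 52.6 and 72.5 CPM in young mice (log2 fold change -1.004, SE 0.22, edgeR adjusted p = 0.0472). Its pass was lost without aged mouse 2 or 3 or any one young mouse (adjusted p = 0.0737 to 0.132). Ptprc, the pan-leukocyte gene CD45, ranged from 14.03 to 39.7 CPM in aged and from 19.4 to 24.3 CPM in young mice, and Cd68 from 3.25 to 4.30 and from 2.72 to 4.99 CPM. No listed leukocyte marker was at 0 in all libraries. The part of leukocytes in the Nr1h3 difference was not tested.

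**Figure D3:**
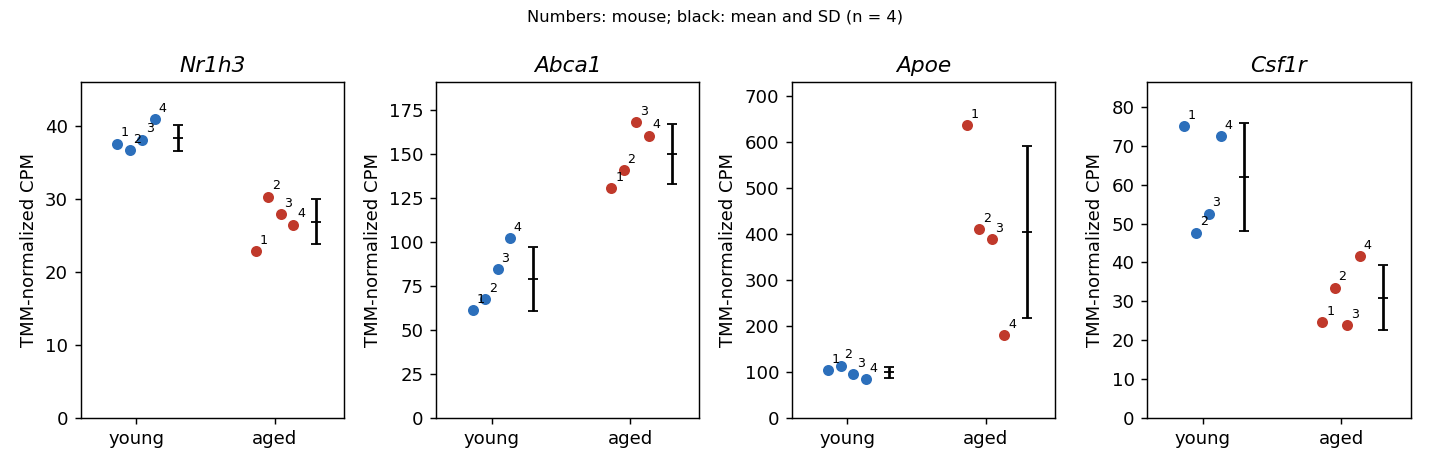
TMM-normalized CPM of Nr1h3, the liver X receptor targets Abca1 and Apoe, and the macrophage gene Csf1r in each mouse (numbers), with group mean and SD in black (n = 4). The aged points lie below the young points for Nr1h3 and Csf1r and above them for Abca1 and Apoe. Csf1r was the 1 of 5 tested leukocyte markers with a log2 fold change below 0, and the other 4 were above 0.

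The farnesoid X receptor targets, which move bile acids and organic anions, held 5 tested genes of 7, and edgeR passed none at the adjusted p. Their median log2 fold change was -0.18, and 0.074 without aged mouse 1. Osta, which encodes a subunit of the basolateral bile acid transporter, was the 1 gene with an unadjusted p below 0.05, as against 25.5% of all genes. Osta passed the adjusted p by DESeq2 and by limma-voom, lower in aged mice. Once aged mouse 1 was left out, Osta fell by edgeR too.

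Among the retinoic acid receptors, which turn retinoic acid into changes of transcription, Rara was the most abundant per length. It had 35.04, 43.4, 32.1 and 47.97 CPM in aged mice 1 to 4 and 45.3, 52.2, 42.8 and 51.4 CPM in young mice 1 to 4, with overlap between the groups (log2 fold change -0.28, SE 0.14, edgeR adjusted p = 0.236). Rarb, itself a classical target of retinoic acid, had means of 15.2 ± 6.199 CPM in aged and 19.4 ± 3.16 CPM in young mice (log2 fold change -0.35, SE 0.27, edgeR adjusted p = 0.419). Leaving out aged mouse 1 moved its log2 fold change to -0.64, leaving out aged mouse 3 to -0.23 and leaving out aged mouse 4 to -0.19. Rarg had 22.3 ± 3.53 and 21.9 ± 1.29 CPM (log2 fold change 0.024, SE 0.12, edgeR adjusted p = 0.911). Rxra encodes the partner shared by many receptors and had 326, 238, 218 and 228 CPM in aged and 219, 249, 237 and 252 CPM in young mice. Aged mouse 1 had the highest value and the other aged mice lay within or just below the young range (log2 fold change 0.079, SE 0.13, edgeR adjusted p = 0.7299). Without aged mouse 1 its log2 fold change was -0.067. Rxrb, at 42.3 ± 2.62 and 43.2 ± 3.62 CPM (log2 fold change -0.032, SE 0.085, edgeR adjusted p = 0.831), had an interval of -0.23 to 0.16.

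The genes that make, bind and break down retinoids, or that retinoic acid induces, included larger differences than the receptors themselves. Of 12 tested of 15 listed, 3 rose and 1 fell. Aldh1a1, which oxidizes retinaldehyde to retinoic acid, had 189, 82.9, 92.9 and 45.3 CPM in aged and 8.99, 6.500, 11.9 and 9.09 CPM in young mice (log2 fold change 3.50, SE 0.42, edgeR adjusted p = 0.0125). Stra6, the membrane receptor for retinol-binding protein, had means of 9.13 ± 4.38 CPM and 1.39 ± 0.469 CPM (log2 fold change 2.70, SE 0.44, edgeR adjusted p = 0.0267). Lrat, which stores retinol as retinyl esters, had 15.9 ± 6.83 CPM and 6.03 ± 1.61 CPM (log2 fold change 1.40, SE 0.31, edgeR adjusted p = 0.0499). Ttr, the plasma carrier of thyroxine and retinol-binding protein, fell from 48.5 ± 14.8 CPM in young to 11.9 ± 7.54 CPM in aged mice (log2 fold change -2.02, SE 0.38, edgeR adjusted p = 0.03902). In these 4 genes, named because they passed, the aged and young mice did not overlap, and in no other of the 12 tested. Of all genes, 18.9% did not overlap. The median over the list was 0.21.

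These passes differed in how far they rested on single mice. Aldh1a1 lost its pass without young mouse 1, 3 or 4 (adjusted p = 0.0632, 0.0540 and 0.0633), and Stra6 without aged mouse 3 or any one young mouse (0.0532 to 0.103). Ttr lost it without aged mouse 2 or 3 or any one young mouse (adjusted p = 0.0682 to 0.108). Lrat, just inside the limit, lost it in every leave-one-out fit except that without aged mouse 4 (0.0505 to 0.142). The sign of each log2 fold change was kept in all 16 alternatives.

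Both thyroid hormone receptor genes are expressed in the cortex, and their log2 fold changes had opposite signs, neither passing the adjusted p. Thrb, the more abundant per length, had 61.9, 81.8, 72.4 and 89.6 CPM in aged mice 1 to 4 and 102, 83.2, 107 and 107 CPM in young mice 1 to 4. Only aged mouse 4 had a value above the lowest young mouse (log2 fold change -0.38, SE 0.13, edgeR adjusted p = 0.117). Thra had 61.7, 61.1, 41.3 and 39.04 CPM in aged and 40.3, 41.7, 36.7 and 39.01 CPM in young mice. Aged mice 1 and 2 were well above the young range and aged mice 3 and 4 were within it (log2 fold change 0.36, SE 0.16, edgeR adjusted p = 0.192). Thra overlaps the clock gene Nr1d1 on the opposite strand over 1075 nt, counted like the other overlaps given here over whole genes with introns, and reads were counted by strand. Nr1d1 itself had log2 fold change -0.34, SE 0.63, edgeR adjusted p = 0.755.

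The ratio of Thra to Thrb counts within a library needs no scaling between libraries. It was 0.997, 0.747, 0.570 and 0.436 in aged mice 1 to 4, as against 0.397, 0.502, 0.344 and 0.365 in young mice. The means were 0.687 ± 0.242 and 0.402 ± 0.0702 (SD, n = 4 each), with 1 aged mouse inside the young range. The log2 difference was 0.72 (two-sided exact permutation test over 70 orders, p = 0.0571, adjusted over 3 ratios 0.0857; the smallest p possible is 0.0286). Without aged mouse 4, the mouse inside the young range, the log2 difference was 0.92, with p = 0.0286 in the exact permutation test. Leaving it out ended the overlap by itself, and that p is the smallest this test can give. With any other mouse left out the exact permutation p was 0.0571 to 0.114.

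Of 9 listed genes of thyroid hormone activation and response, 6 were tested, of which 1 rose and 1 fell. Dio1, the deiodinase that makes active hormone in the kidney and a known target of thyroid hormone receptor beta, fell. It had 5.398, 7.28, 2.56 and 5.34 CPM in aged mice 1 to 4 and 22.1, 13.95, 24.9 and 21.7 CPM in young mice 1 to 4 (log2 fold change -2.01, SE 0.30, edgeR adjusted p = 0.0216), and lost its pass without young mouse 1, 3 or 4 (0.0895, 0.0804 and 0.0888). Thrsp, a lipogenic gene induced by thyroid hormone in liver and fat, rose from 2.702 ± 1.04 CPM in young to 12.5 ± 7.04 CPM in aged mice (log2 fold change 2.20, SE 0.49, edgeR adjusted p = 0.0498). Without aged mouse 1 its adjusted p was 0.0518 and without aged mouse 2 it was 0.0815, and without any one young mouse it was 0.119 to 0.136. The adipocyte markers, summed, were at 4.75 to 129.6 CPM in aged and 0.680 to 12.5 CPM in young mice, highest in aged mice 1 and 2, and their part in the Thrsp values was not tested. The list's median was 0.13, and -0.088 without aged mouse 1.

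Hnf4a, the most abundant receptor gene, had 956, 903, 1193 and 1263 CPM in aged mice 1 to 4 and 1183, 1338, 1137 and 1247 CPM in young mice 1 to 4. Aged mice 1 and 2 were below the young range and aged mice 3 and 4 within it (log2 fold change -0.19, SE 0.13, edgeR adjusted p = 0.401). Its paralog Hnf4g had means of 24.7 ± 7.23 CPM and 22.5 ± 3.33 CPM (log2 fold change 0.14, SE 0.20, edgeR adjusted p = 0.687). The Hnf4a to Hnf4g count ratio was 46.0 ± 14.3 in aged and 55.4 ± 8.22 in young mice (SD, n = 4 each; log2 difference -0.31, two-sided exact permutation p = 0.286, adjusted 0.286). Without aged mouse 3 that difference was -0.50 (exact permutation p = 0.0286). Leaving out aged mouse 3 ended the overlap of the ratios by itself, and that p is the smallest this test can give. With any other mouse left out the exact p was 0.229 to 0.486. None of 14 listed Hnf4a-dependent proximal tubule genes passed the adjusted p by edgeR, and 9 of them had log2 fold changes below 0, with a median of -0.14, which was -0.048 without aged mouse 1. At an unadjusted p below 0.05 there were 1 higher and 1 lower, as against 13.4% and 12.1% of all genes. G6pc and Slc22a6, the enzyme glucose-6-phosphatase and an organic anion transporter, passed by DESeq2 (1 higher, 1 lower), and Slc22a6 by limma-voom. The summed level of the list was 16176 CPM in aged mouse 1, 23171 to 26678 CPM in the other aged mice and 24106 to 28125 CPM in young mice. With aged mouse 1 left out, Cubn, an endocytic receptor of the proximal tubule, rose, and Pck1, the gluconeogenic enzyme PEPCK, fell.

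Ppard and Pparg encode fatty acid-activated receptors, the first widely expressed and the second best known from adipocytes. Ppard had 26.9, 69.5, 31.1 and 23.5 CPM in aged and 48.05, 38.4, 32.4 and 27.4 CPM in young mice. Aged mouse 2 had the highest value of all and aged mice 1 and 4 were below the young range (log2 fold change 0.043, SE 0.34, edgeR adjusted p = 0.945). Without aged mouse 2 its log2 fold change was -0.43. Pparg was unevenly distributed among the aged mice. It had 15.7, 3.77, 2.03 and 3.27 CPM in aged mice 1 to 4 and 3.14, 2.11, 1.36 and 2.597 CPM in young mice 1 to 4 (log2 fold change 1.43, SE 0.62, edgeR adjusted p = 0.1904). Aged mouse 1 was above all others, and without it the log2 fold change was 0.38 (edgeR adjusted p = 0.474).

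As a sum, the adipocyte markers followed the same mouse. Their summed level was 129.6, 33.1, 4.75 and 18.6 CPM in aged mice 1 to 4 and 3.08, 5.60, 0.680 and 12.5 CPM in young mice 1 to 4. Of the 5 markers, Lep was not tested and did not follow the sum. It had 2, 19, 7 and 14 counts in aged mice 1 to 4, lowest in aged mouse 1. In young mice 1 to 4 it had 1, 5, 0 and 6 counts. The other 4 markers were tested and none passed the adjusted p by edgeR or limma-voom, while Adipoq and Retn passed by DESeq2. All 4 had an unadjusted p below 0.05, as did 25.5% of all genes. The 4 log2 fold changes were above 0, with a median of 3.11, which was 1.90 without aged mouse 1. No adipocyte marker was at 0 in all libraries. The lipid genes listed for PPAR delta and gamma, of which Adipoq, Cidec and Plin1 are also adipocyte markers, gave 0 of 11 passes by edgeR, 9 values above 0 and a median of 1.68. At an unadjusted p below 0.05, 6 were higher and 2 lower, as against 13.4% and 12.1% of all genes. DESeq2 passed Adipoq, higher, and the fatty acid uptake genes Cd36 and Lpl, lower, and limma-voom passed 1 higher gene and the same 2 lower genes. Leaving out aged mouse 1 gave a median of 0.60 and 1 pass, higher. The part of fat tissue in the Pparg values was not tested.

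**Figure D4:**
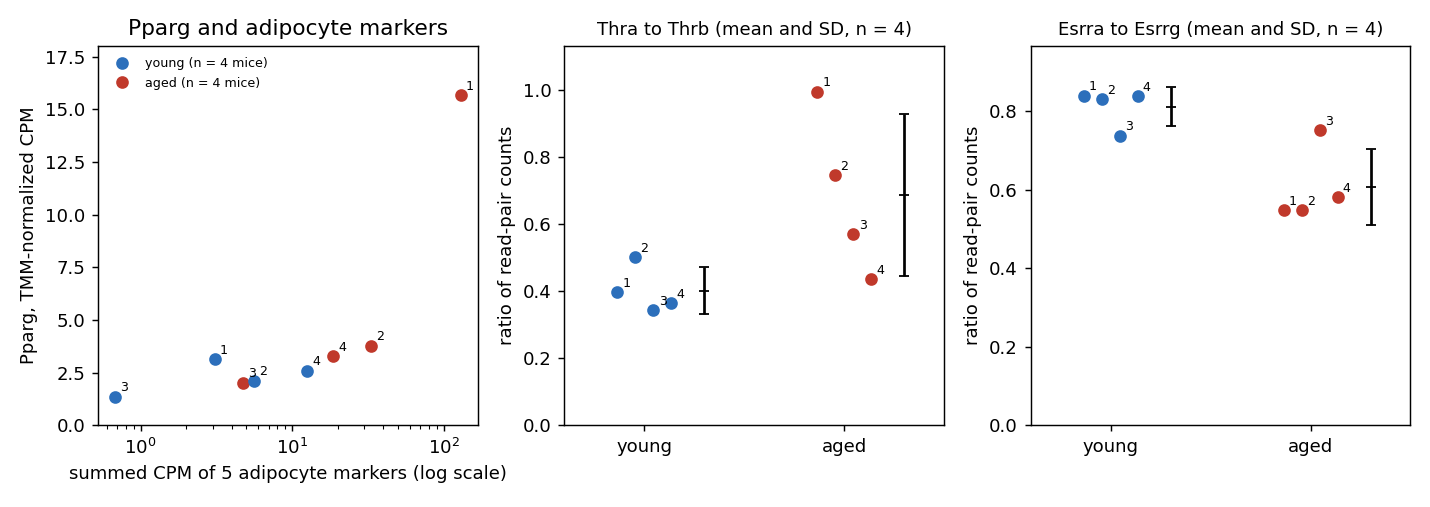
Left, Pparg (TMM-normalized CPM) against the summed CPM of 5 adipocyte markers (log axis), 1 point per mouse with its number. Aged mouse 1, at 15.7 and 129.6 CPM, is far from the rest. Middle and right, ratio of Thra to Thrb and of Esrra to Esrrg read-pair counts per mouse, with mean and SD (n = 4); in both, 1 aged mouse lies within the young range.

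Estrogen-related receptors, which have no known natural hormone and drive genes of oxidative metabolism, were represented by 3 genes. Esrra, at chr19:6985467-6996303 on mm9, was the most abundant per length. It had 48.04, 90.02, 92.8 and 92.8 CPM in aged mice 1 to 4 and 109, 115, 119 and 109 CPM in young mice 1 to 4. All aged mice were below all young mice, aged mouse 1 by the widest margin, with means of 80.9 ± 21.96 and 113 ± 4.91 CPM (SD, n = 4 each; log2 fold change -0.48, SE 0.19, edgeR adjusted p = 0.161). Without aged mouse 1 the log2 fold change was smaller, at -0.30, and the adjusted p was 0.0354, so that the gene then fell by the adjusted p alone. Esrra overlaps Trmt112 on the opposite strand over 73 nt.

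Esrrg, its relative in tissues of high energy demand, had means of 134 ± 35.8 CPM in aged and 139.7 ± 14.8 CPM in young mice (log2 fold change -0.062, SE 0.19, edgeR adjusted p = 0.853). Its sign was not stable, with 0.039 when libraries were scaled by size only. Esrrb had 42.00 ± 21.04 and 30.7 ± 5.82 CPM (log2 fold change 0.45, SE 0.31, edgeR adjusted p = 0.369), and 0.051 without aged mouse 1. The ratio of Esrra to Esrrg counts was 0.548, 0.547, 0.751 and 0.581 in aged mice 1 to 4, as against 0.839, 0.830, 0.738 and 0.838 in young mice. Aged mouse 3 was above the lowest young mouse and the other aged mice were below all young mice. The log2 difference was -0.43 (two-sided exact permutation test, p = 0.0571, adjusted over 3 ratios 0.0857), and -0.54 without aged mouse 3 (exact permutation p = 0.0286). Leaving out aged mouse 3 ended the overlap by itself, and that p is the smallest this test can give. With any other mouse left out the exact p was 0.0571 to 0.0857.

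None of 12 listed estrogen-related receptor targets, genes of the citric acid cycle, fatty acid oxidation and respiratory chain, passed the adjusted p by edgeR or limma-voom. By DESeq2 4 passed, all lower in aged mice, among them Acadm, Idh3a and Mfn2. At an edgeR unadjusted p below 0.05, 4 were lower, as against 12.1% of all genes. The log2 fold changes were all below 0, with a median of -0.18. In 6 of the 12 every aged mouse was below every young mouse, as in 10% of all genes tested. Their summed level was 4335 to 5222 CPM in aged and 5490 to 5888 CPM in young mice, without overlap. Aged mouse 1 had the lowest sum, and without it 11 of 12 values were below 0 with a median of -0.14. The proximal tubule markers, at 12129 CPM in aged mouse 1, 22567 to 27142 CPM in the other aged mice and 24626 to 28783 CPM in the young mice, are given beside these values. Of those 8 markers none passed the adjusted p by edgeR. At an unadjusted p below 0.05, 1 was higher and 2 lower, as against 13.4% and 12.1% of all genes. Slc22a6 (lower) and Slc5a12 (higher) passed by DESeq2 and limma-voom. The log2 fold changes of 7 of these 8 markers were below 0, with a median of -0.31, and of -0.086 without aged mouse 1. The part of these markers in the target values was not tested.

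Esr1, at chr10:5340927-5734948 on mm9, encodes estrogen receptor alpha and is expressed in male kidney too. Its level was 9.96, 14.4, 13.1 and 19.9 CPM in aged mice 1 to 4 and 25.4, 19.7, 19.6 and 28.9 CPM in young mice 1 to 4. Aged mouse 4 was just above the lowest young mice and the other aged mice were below all young mice, with means of 14.3 ± 4.14 and 23.4 ± 4.53 CPM (SD, n = 4 each; log2 fold change -0.71, SE 0.21, edgeR adjusted p = 0.09500). DESeq2 gave an adjusted p of 0.02601, and edgeR without aged mouse 4 gave 0.0292 at a log2 fold change of -0.91. Over the 16 alternatives the adjusted p ranged from 0.02601 to 0.226. Pgr, the progesterone receptor, was low in both groups, at 2.33 ± 0.591 and 2.32 ± 0.526 CPM (log2 fold change 0.0057, SE 0.26, edgeR adjusted p = 0.991).

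The COUP transcription factors are orphan receptors with roles in vascular and organ development. Nr2f6, the most abundant per length in the young mice, had 64.6, 136, 111 and 116 CPM in aged and 136, 125, 125 and 121 CPM in young mice. Aged mouse 1 had the lowest value and aged mouse 2 was close to the highest young mouse (log2 fold change -0.24, SE 0.19, edgeR adjusted p = 0.443). The log2 fold change was -0.064 without aged mouse 1 and -0.38 without aged mouse 2. It overlaps Ocel1 on the opposite strand over 5239 nt. Nr2f2, more abundant than Nr2f6 in the aged mice, had 165, 195, 189 and 169 CPM in aged and 175, 181, 168 and 196 CPM in young mice (log2 fold change -0.0034, SE 0.088, edgeR adjusted p = 0.983). The 95% confidence interval of its log2 fold change was -0.20 to 0.19. Nr2f1 was low, with means of 1.45 ± 0.144 CPM and 1.05 ± 0.181 CPM (log2 fold change 0.45, SE 0.21, edgeR adjusted p = 0.2200).

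Nr2c2, testicular receptor 4, an orphan receptor that is widely expressed in spite of its name, was the single gene among the 28 tested with every aged mouse above every young mouse, an order found in 8.85% of all genes tested. It had 125, 122, 123 and 123 CPM in aged mice 1 to 4 and 109.5, 119, 113 and 107 CPM in young mice 1 to 4. The aged mice were close together and 1 young mouse, at 119 CPM, came near them (log2 fold change 0.14, SE 0.065, edgeR adjusted p = 0.227). The size was small, with a confidence interval of -0.012 to 0.28. Nr2c2 overlaps Mrps25 on the opposite strand over 3533 nt. Its partner Nr2c1, testicular receptor 2, had 15.9 ± 3.68 and 14.4 ± 0.724 CPM (log2 fold change 0.15, SE 0.15, edgeR adjusted p = 0.552).

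Nr0b2, the small heterodimer partner, lacks a DNA-binding domain and represses other receptors. It had 0.981, 1.82, 1.07 and 0.708 CPM in aged mice 1 to 4 and 1.48, 1.53, 1.77 and 1.89 CPM in young mice 1 to 4. Aged mouse 2 had a value like those of the young mice and the other aged mice were below them (log2 fold change -0.55, SE 0.30, edgeR adjusted p = 0.269). Without aged mouse 2 the adjusted p was 0.0976.

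The Nr4a receptors are immediate-early genes that rise rapidly after stress. Nr4a2 had 2.16, 0.975, 0.641 and 0.817 CPM in aged and 0.678, 0.846, 0.815 and 0.708 CPM in young mice, highest in aged mouse 1 (log2 fold change 0.60, SE 0.40, edgeR adjusted p = 0.3595). Nr4a3 had means of 1.26 ± 1.597 CPM and 0.433 ± 0.212 CPM (log2 fold change 1.57, SE 0.86, edgeR adjusted p = 0.273), with 3.63, 0.6500, 0.588 and 0.163 CPM in aged mice 1 to 4. Without aged mouse 1 the log2 fold changes were 0.079 for Nr4a2 and 0.12 for Nr4a3.

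Nr6a1, germ cell nuclear factor, known as a repressor of pluripotency genes, had 19.04, 15.1, 14.2 and 13.4 CPM in aged mice 1 to 4 and 11.3, 13.5, 13.8 and 9.86 CPM in young mice 1 to 4. Aged mice 1, 2 and 3 were above all young mice and aged mouse 4 was not (log2 fold change 0.35, SE 0.15, edgeR adjusted p = 0.1901). Nr5a1 and Nr0b1 encode steroidogenic factor 1 and Dax1 of the adrenal and gonads, and their levels (0 counts in all libraries and at most 3) stood beside adrenal cortex markers Cyp11b1 and Cyp21a1 at 0 in all libraries. Other adrenal markers were detected. Star had 15 to 59 counts and Mc2r 3 to 25 counts per library, and Hsd3b1 had at most 13. Cyp11a1 and Cyp11b2 had at most 2 and 1 counts. The 7 adrenal markers summed to 2.66 to 4.17 CPM in aged and 1.90 to 2.38 CPM in young mice, without overlap. Star, the 1 marker with enough counts to be tested, did overlap. It was at 0.975 CPM in aged mouse 2, below the 1.53 to 2.04 CPM of the young mice, and 2.40 to 3.21 CPM in the other aged mice.

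Receptors act through coregulators and on target genes. None of 16 coregulator genes, among them the p160 coactivators and the NCoR corepressors, passed the adjusted p by edgeR or limma-voom, and their median log2 fold change was 0.048, which was -0.0069 without aged mouse 1. At an unadjusted p below 0.05, 5 of them were higher and 1 lower, as against 13.4% and 12.1% of all genes. DESeq2 passed Crebbp and Hdac3, both higher. Targets of the pregnane X and constitutive androstane receptors, whose own genes were not analysed here, gave 2 rises and 1 fall among 6 tested of 9. Abcb1a, the drug efflux pump P-glycoprotein, rose from 9.28 ± 1.68 CPM in young to 21.6 ± 1.79 CPM in aged mice (log2 fold change 1.22, SE 0.14, edgeR adjusted p = 0.01197). Por, the reductase that supplies electrons to cytochromes P450, fell from 447 ± 18.7 CPM to 257 ± 54.2 CPM (log2 fold change -0.80, SE 0.14, edgeR adjusted p = 0.0323). Ugt1a1, a bilirubin-conjugating enzyme, had 21.3, 10.6, 6.195 and 1.58 CPM in aged and 0.986, 1.48, 0.951 and 0.885 CPM in young mice (log2 fold change 3.19, SE 0.69, edgeR adjusted p = 0.0477). Ugt1a1 shares its downstream exons with other Ugt1a genes, so its counts are uncertain. Abcb1a lost its pass without young mouse 1 or 4 (0.0511 and 0.0594), Por without aged mouse 2 or 3 or any one young mouse (0.0593 to 0.103), and Ugt1a1 without the same mice (0.0709 to 0.142). The list's median was 0.48, and -0.38 without aged mouse 1.

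Among 11 tested receptor genes outside the rule, 1 passed the adjusted p, and it was also called, with a fold change above 1.5. Nr1d2, a heme-binding clock repressor, fell from 204 ± 7.13 CPM to 120.0 ± 21.4 CPM (log2 fold change -0.77, SE 0.13, edgeR adjusted p = 0.0267). It did not pass without aged mouse 3 or any one young mouse (adjusted p = 0.0578 to 0.102). The median of these genes was -0.013, and -0.0020 without aged mouse 1.

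**Figure D5:**
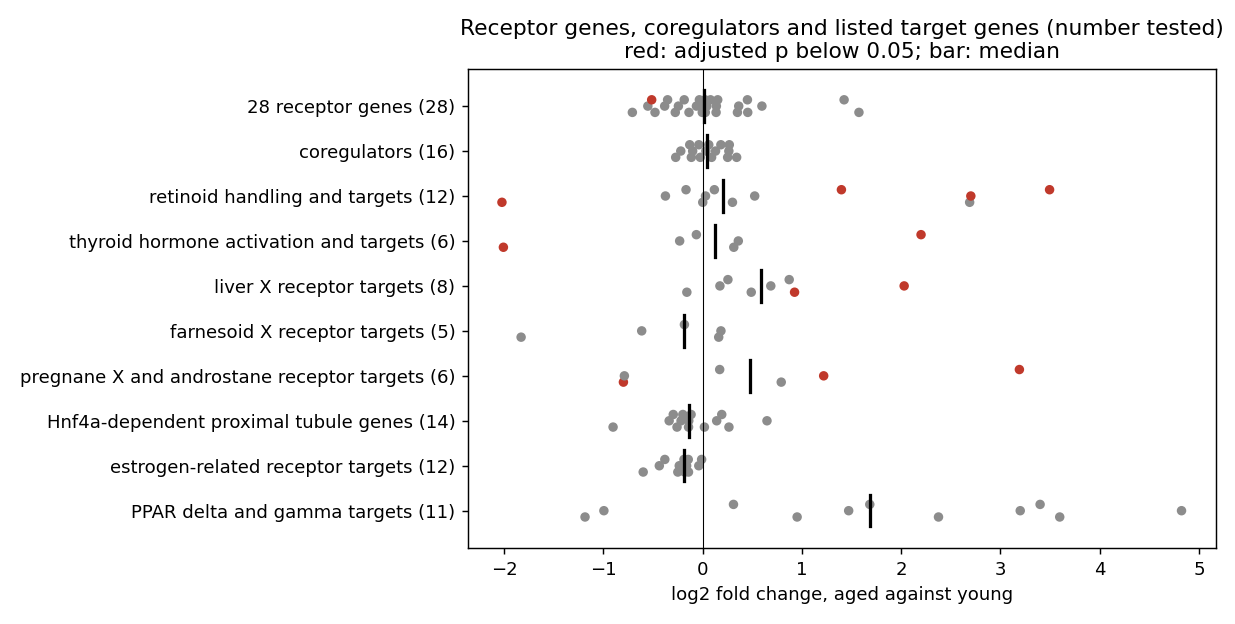
Log2 fold change, aged against young, of the 28 receptor genes, 16 coregulators and the tested genes of 8 target lists, 1 point per gene, with the median of each list as a bar; red points passed an adjusted p of 0.05 (edgeR). The receptors run from -0.71 to 1.57 with a median of 0.015, the estrogen-related receptor targets are all below 0, and the PPAR targets are spread furthest, with a median of 1.68.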

How the data were processed

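Ribosomal RNA was removed from renal cortex RNA of 4 aged and 4 young mice, and stranded libraries were read from both ends (100 bp). The authors used TopHat2 for alignment to UCSC mm9 and HTSeq-count, in its reverse-strand mode, for counting on NCBI RefSeq genes. They deposited raw counts per gene, without normalization or a length correction. CASAVA 1.8.2 is listed in the submitters' processing notes, and versions of the other programs are not given in the sources used here. Each library's own table was used. A joint table of 8 columns was not used, because its column names stand in no sample label. Library sizes and tests excluded 5 closing lines per table that are not genes. Among them, the line for read pairs on no gene held 20.0% to 29.9% of the total, highest in aged mice 1 and 4 (29.9% and 29.0%). The line for alignments that were not unique held 34.3% to 39.1%. Depths were 14820804 to 19821429 gene counts. No library was a duplicate of another (smallest chi-square per gene 9.36).

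Members and gene lists were chosen with earlier results of these data known. Groups came from the sample labels. Counts were analyzed in R 4.3.3 with edgeR 4.0.16 (quasi-likelihood F test, TMM, filterByExpr with a minimum count of 10) over 8 libraries with no covariate, fitted on all 13944 genes that passed, with Benjamini-Hochberg adjustment over them. This test stood in for the DESeq of the study, whose adjusted p and fold thresholds were kept and whose FPKM threshold was not used. SEs were obtained as the absolute log2 fold change over the root of F, and confidence intervals (95%) used the degrees of freedom of the test. Count ratios were compared by two-sided exact permutation over 70 orders. FPKM was computed from TMM-scaled counts and the union of exons in the GENCODE annotation of NCBIM37 (mm9), which gave a length to 98.6% of tested genes and to all members. Promoter windows came from RefSeq on GRCm38.p6. The tests were tested on simulated data.

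Every member was named. Values per mouse were given for members past the adjusted p, members without overlap between groups, and the most abundant member per length of each of 13 roles. List genes were named where they passed the adjusted p, at most 5 per list. Pparg, Thra, Nr4a3 and list genes that passed in other fits only were given further values or named after their values were seen. Alternatives were other scalings, DESeq2 1.42.0, limma-voom 3.58.1 with quality weights, other filters, the replicate number as a block and each mouse left out. No label says whether the replicate numbers pair the mice. Deviations from group means of mice with the same number correlated at 0.21, 0.04, 0.20 and -0.03, which does not decide the question. Single-gene results for some members of the target lists are not reported here.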

Additional observations from a re-analysis of the deposited data

Results flagged for a closer look

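In 5 of 56 groups of 4 mice, 1 per tested receptor gene and age, the highest or lowest mouse was further from the others than Dixon's 95% critical value allows, where chance would give 2.8. The value given is the gap to the nearest other mouse divided by the range of the group. Esrra in aged mouse 1 was the lowest of the aged mice (48.04 CPM, the others 90.02 to 92.8 CPM, value 0.937). Pparg in aged mouse 1 was the highest (15.7 CPM, the others 2.03 to 3.77 CPM, value 0.872). Nr4a3 in aged mouse 1 was the highest (3.63 CPM, the others 0.163 to 0.650 CPM, value 0.8597). Ppard in aged mouse 2 was the highest (69.5 CPM, the others 23.5 to 31.1 CPM, value 0.834). Nr2f1 in young mouse 2 was the highest of the young mice (1.32 CPM, the others 0.944 to 0.986 CPM, value 0.891). Of the 5, 3 concern aged mouse 1.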

How the results depend on the processing

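The count of receptor genes called was 0 by edgeR, 1 by DESeq2 and 1 at an adjusted p below 0.1, Esr1 each time, and 0 to 1 when each mouse was left out in turn. At the adjusted p alone, the count of 1 was 2 by DESeq2 (Esr1 and Nr1h3), 0 with the replicate number as a block, and 0 to 2 with a mouse left out (Esrra and Nr1h3 without aged mouse 1, Esr1 and Nr1h3 without aged mouse 4). All genes called numbered 287, and 484 with library size only, 873 by DESeq2, 483 by limma-voom, 130 with the replicate block, and 8 to 733 with a mouse left out. Over all genes, the median log2 fold change was 0.029 in the reported fit and 0.14 with library size only. The share of calls that were higher in aged mice was 56.8%, 75.4% with library size only, 65.3% with upper-quartile scaling and 49.3% by limma-voom.

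Nr1h3 passed the adjusted p in 10 of 16 alternatives, which gave 4e-04 (DESeq2) to 0.126. With the replicate block it was 0.0695. No label says whether the numbers pair the mice, and 3 of 4 aged mice correlated best with the young mouse of their own number. With the block Csf1r, Por, Ugt1a1, Ttr, Lrat and Dio1 also lost their pass (adjusted p = 0.0507 to 0.0991). Thrsp gave 0.0523 by limma-voom and 0.0507 without a filter, and Lrat 0.0502 with DESeq2 size factors, 0.05001 under a filter of 10 counts in 4 libraries and 0.0522 without a filter.

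The sign of some uncalled receptor genes turned. With library size only, Esrrg was 0.039, Nr2f2 0.11 and Rxrb 0.077. With upper-quartile scaling, Nr2f2 was 0.036 and Rxrb 0.0064. By limma-voom, Esrrg was 0.020, Nr2f2 0.036, Rarg -0.039 and Rxra -0.026. Pgr was -0.0012 without a filter and -0.0050 with the replicate block, and Ppard -0.064 with the block. With a mouse left out, the log2 fold changes were -0.18 to 0.095 for Esrrg, -0.070 to 0.26 for Hnf4g, -0.0043 to 0.047 for Nr1h2, -0.32 to 0.031 for Nr1h4, -0.020 to 0.24 for Nr2c1, -0.045 to 0.040 for Nr2f2, -0.13 to 0.17 for Pgr, -0.43 to 0.21 for Ppard, -0.070 to 0.086 for Rarg, -0.067 to 0.14 for Rxra and -0.079 to 0.012 for Rxrb. The cause of these turns was not tested.

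The log2 ratio differences were -0.54 to -0.38 for Esrra to Esrrg, -0.50 to -0.20 for Hnf4a to Hnf4g and 0.52 to 0.92 for Thra to Thrb with a mouse left out. Without aged mouse 1, an alternative chosen after seeing the data, the genes past the adjusted p numbered 1 in the thyroid list (2 with all mice), 1 in the farnesoid X list (0), 2 in the Hnf4a list (0) and 1 in the PPAR list (0). By DESeq2, also added after seeing the data, passes numbered 2 for the coregulators (0 by edgeR), 1 for the farnesoid X list (0), 2 for the Hnf4a list (0), 4 for the estrogen-related list (0), 3 for the PPAR list (0) and 3 for the receptor genes outside the rule (1). By limma-voom they numbered 1 for the thyroid (2), farnesoid X and Hnf4a lists, 3 for the PPAR list and 2 for the receptor genes outside the rule. With 4 mice per group, no ratio can reach an exact permutation p below 0.0286, and counts as low as 3 (Nr4a3) and 1 (Rxrg) limit the genes nearest the filter.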
